A study of Mus musculus with 10 samples.

Results

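The genes described here are the non-globin genes of the red cell, measured in the embryonic day 12 mouse cortex. Of 9 genes listed by symbol, 7 were found by that symbol among the 24814 genes of the deposited table. Epb42 was found through its Ensembl identifier, since the table uses the older symbol Epb4.2, and Ahsp was not analysed here. The 8 genes are the transcription factor genes Gata1 and Klf1, the nuclear factor gene Hemgn, the haem synthesis genes Alas2 and Fech, and the membrane genes Slc4a1, Epb42 and Rhag.

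RNA was sequenced from 10 cortices, 1 embryo per library. The 5 WT embryos were Emx1 Cre/+ with the Zbtb7a +/+ genotype, and the 5 cKO (conditional knockout) embryos were Emx1 Cre/+ with Zbtb7a fl/fl, so every embryo carried the Cre driver and no library had floxed alleles without Cre. WT 1 and WT 2 were littermates of cKO 1 to cKO 3 (litter 1), WT 3 and WT 4 of cKO 4 (litter 3), and WT 5 of cKO 5 (litter 5). Litter is the batch named in the labels, so a difference between litters cannot be told apart from a difference in exact stage, dissection, handling or library preparation.

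Red cells at this stage include nucleated primitive erythroid cells, which arise in the yolk sac, circulate through the vessels of the brain and still hold messenger RNA. Definitive red cells arise later from the foetal liver. GATA1 and KLF1 are the main activators of the erythroid programme, and their targets include the globin, haem and membrane genes. ALAS2 carries out the first step of haem synthesis in erythroid cells and FECH inserts iron in the last. The anion exchanger band 3, the product of Slc4a1, joins the lipid bilayer to the spectrin skeleton together with the product of Epb42 and the Rh-associated glycoprotein RHAG. Emx1-Cre acts mainly in progenitors of the dorsal telencephalon. Zbtb7a encodes a zinc finger repressor that is known to be needed for red cell formation in mice.

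RefSeq promoter windows on GRCm38.p6, from 250 bases before to 50 bases after the annotated start, were given for 6 of the 8 genes. The 4 printed here belong to genes whose litter 3 libraries all lay above the litter 1 libraries. Each is written 5′ to 3′ on the gene's strand, and capitals mark GATA motifs (GATA with A or T before it and A or G after it, on either strand) and KLF motifs (CCNCNCCC, on either strand).
Alas2 (chrX:150547167-150547466, plus strand): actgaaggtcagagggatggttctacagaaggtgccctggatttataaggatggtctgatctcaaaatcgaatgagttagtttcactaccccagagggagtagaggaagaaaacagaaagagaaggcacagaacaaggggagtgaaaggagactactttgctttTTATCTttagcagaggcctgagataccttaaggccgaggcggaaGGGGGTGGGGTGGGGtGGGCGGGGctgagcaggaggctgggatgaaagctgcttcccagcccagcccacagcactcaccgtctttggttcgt
Klf1 (chr8:84901732-84902031, plus strand): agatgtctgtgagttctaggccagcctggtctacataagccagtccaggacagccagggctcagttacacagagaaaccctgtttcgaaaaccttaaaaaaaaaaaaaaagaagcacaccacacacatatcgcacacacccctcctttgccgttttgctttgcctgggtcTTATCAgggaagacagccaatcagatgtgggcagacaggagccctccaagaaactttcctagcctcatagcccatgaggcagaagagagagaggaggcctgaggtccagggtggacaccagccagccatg
Rhag (chr17:40810899-40811198, plus strand): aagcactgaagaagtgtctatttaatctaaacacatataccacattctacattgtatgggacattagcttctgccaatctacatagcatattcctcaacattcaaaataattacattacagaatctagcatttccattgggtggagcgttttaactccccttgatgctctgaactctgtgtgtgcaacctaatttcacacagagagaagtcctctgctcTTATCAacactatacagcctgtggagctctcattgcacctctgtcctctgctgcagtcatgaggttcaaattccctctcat
Hemgn (chr4:46404134-46404433, minus strand): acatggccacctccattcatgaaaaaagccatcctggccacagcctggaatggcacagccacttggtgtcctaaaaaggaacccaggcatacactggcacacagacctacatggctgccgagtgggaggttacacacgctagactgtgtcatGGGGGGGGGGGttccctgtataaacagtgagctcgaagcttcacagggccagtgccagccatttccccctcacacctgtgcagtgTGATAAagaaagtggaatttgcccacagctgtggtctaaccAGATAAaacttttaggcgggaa
A GATA motif was present in 5 of the 6 windows, and in 29.8% of the 32851 windows of the RefSeq table. The Klf1 window held it with its first base 80 bases before the start, the Alas2 window 86 bases before and the Rhag window 31 bases before. The Hemgn window held 2, with first bases 13 before the start and at base 29 of the transcript. The Epb42 window held 1, and the Gata1 window held none. A KLF motif was present in 3 of the 6 windows, those of Alas2, Hemgn and Gata1, against 49.5% of all windows. In Alas2 all 4 matches, 3 of them overlapping, lay between the GATA motif and the start, and in Hemgn all 4 matches overlapped within a single run of G. The NF-E2 motif GCTGAGTCA was in 0 of the 6 windows and in 0.454% of all windows. A match of letters describes the window and shows no binding.

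Values are TPM as deposited, which is per transcript length, and the read depth of the libraries is unknown. Over the 10 libraries Alas2 was the highest of the 8 genes with a mean of 41.5 TPM, followed by Slc4a1 with 35.1, Fech with 34.2, Hemgn with 6.14, Klf1 with 5.10, Epb42 with 4.39, Rhag with 3.22 and Gata1 with 1.98. Fech exceeded Hemgn in 10 of 10 libraries, which sets the 3 high genes apart from the other 5. The order inside these sets was looser, since Slc4a1 exceeded Fech in 4 of 10 libraries, Hemgn exceeded Klf1 in 5 and Klf1 exceeded Epb42 in 5. All 8 genes passed the filter of at least 1 TPM in at least 5 libraries, which the 3 libraries of litter 3 could not have met alone.

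**Figure D1:**
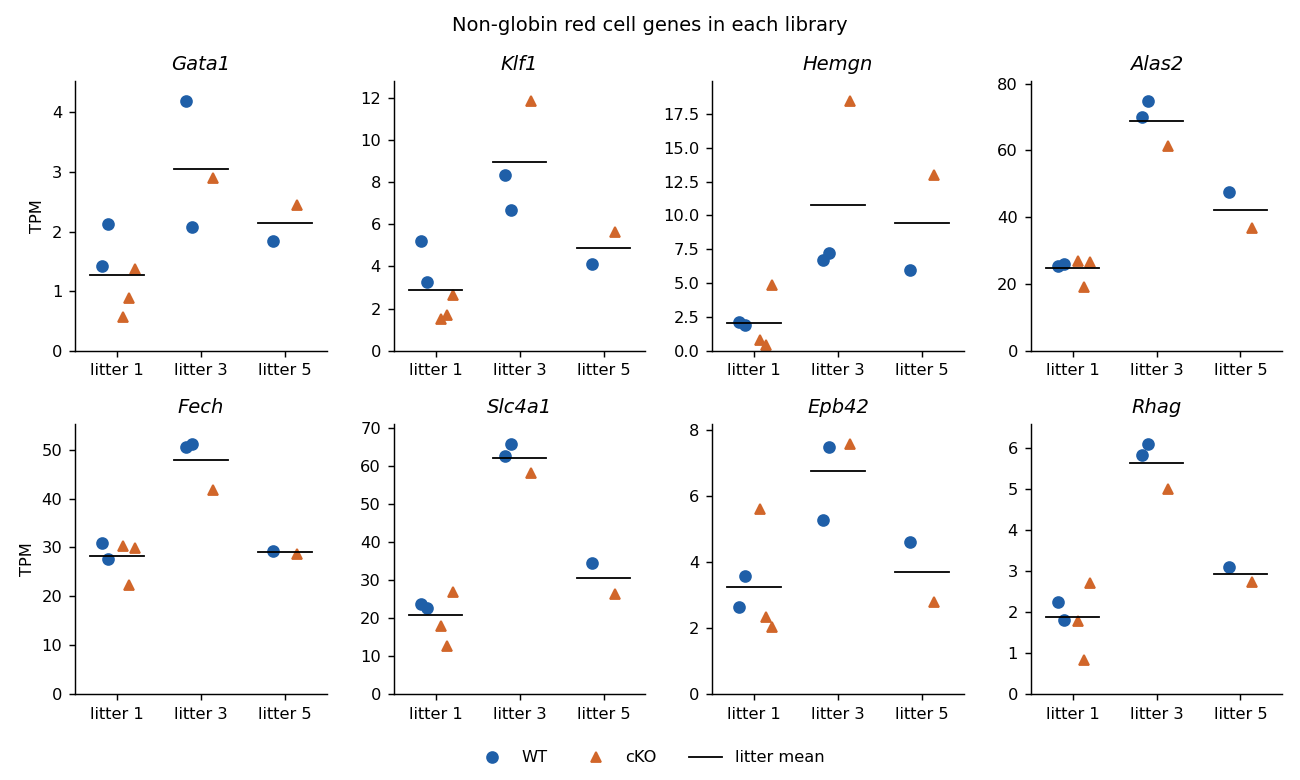
TPM of the 8 genes in each library, by litter on the horizontal axis, with circles for WT, triangles for cKO and a line at the mean of each litter. Litter 3 lies highest for each mean, and Alas2 runs from 19.1 to 26.9 TPM in litter 1 and from 61.5 to 74.8 TPM in litter 3.

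The tissue and the targeted gene were checked first. Zbtb7a averaged 9.59 ± 2.32 TPM over the WT libraries and 4.46 ± 1.02 TPM over the cKO libraries (SD, n = 5 in each group), and the highest cKO value of 5.96 lay below the lowest WT value of 7.20 (2-sided exact permutation p = 0.00794, the smallest that 5 against 5 allows). It did not pass over all genes tested (limma adjusted p = 0.615). All 12 cortex markers were above 1 TPM in some library, and their summed level was 2421 to 2990 TPM in litter 1, 1422 to 1861 in litter 3 and 2145 to 2439 in litter 5. The litter 3 libraries stand apart from litter 1 over the whole table. Of 13833 genes tested, 803 were called higher and 3575 lower in litter 3, with a median log2 fold change of -0.16 over all genes. The split moves with the scaling, from 18.3% of calls higher on TPM to 45.3% after quantile normalisation, 24.9% without globin and mitochondrial genes and 99% after scaling to the cortex markers. The authors' deposited table of their cKO and WT comparison holds 7 genes, and 0 of the 8 genes are among them.

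The comparison between litters asks how far red cell transcripts vary among embryos labelled with the same embryonic day. All 8 genes rose in litter 3 against litter 1 (limma, Benjamini-Hochberg adjusted p under 0.05), where 5.8% of all tested genes were called higher. Their median log2 fold change was 1.28 on the log2(TPM + 1) scale, against -0.16 over all genes. Each of the 8 stayed higher under quantile normalisation, without globin and mitochondrial genes and after scaling to the cortex markers. The cortex markers were lower in litter 3, so the last scaling raised the median over all genes to 0.55, with 1.93 for the 8. With the globin sum as a covariate 0 of the 8 and 0 of all genes were called. Alas2 was then at 0.86 (SE 0.70, against 0.12 without the covariate), and Fech, the 1 gene of the 8 that reversed, at -0.20 (SE 0.62). The globin sum did not overlap between these litters, so this fit cannot separate a litter difference from globin. Earlier results on these libraries already showed that globin was high in litter 3, so the direction is no independent finding. For 6 of the 8 genes the 3 litter 3 libraries all lay above the 5 of litter 1, which held for 7.34% of tested genes, and for 5 they lay above both other litters, which held for 2.86%. Without cKO 4, 4 of the 8 were called, and Epb42, Gata1, Klf1 and Hemgn were not. Over all genes, 3572 were called in either direction without cKO 4, against 4378 with all libraries. In bulk tissue a larger number of red cells and more RNA per red cell cannot be told apart.

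The factor genes varied most among the 5 libraries of litter 1, with a coefficient of variation of 46.5% for Gata1, 52.3% for Klf1 and 86.6% for Hemgn, against 12.5% for Fech to 44.9% for Epb42 among the other 5 genes. The factor genes were also low in TPM, as were Epb42 and Rhag (37.0%), and the spread covers both genotypes. Klf1 (ENSMUSG00000054191, GRCm38 chr8:84901928-84905291, plus strand), which encodes an activator of the adult beta-globin gene, had 5.22 TPM in WT 1, 3.27 in WT 2, 1.52 in cKO 1, 1.67 in cKO 2 and 2.66 in cKO 3. It had 8.35 in WT 3, 6.69 in WT 4 and 11.8 in cKO 4, and in litter 5 it had 4.11 in WT 5 and 5.62 in cKO 5. Litter 3 did not overlap either other litter, and the log2 fold change against litter 1 was 1.37 (SE 0.31; limma adjusted p = 0.0103). Without cKO 4, the highest library, it was 0.93 and not called (limma adjusted p = 0.0755).

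Gata1 (ENSMUSG00000031162, chrX:7959260-7978071, minus strand), which platelet precursors also express, had 0.57 to 2.12 TPM in litter 1. It had 4.19 TPM in WT 3, 2.07 in WT 4, 2.89 in cKO 4, 1.84 in WT 5 and 2.45 in cKO 5. WT 4 lay within the range of litter 1, so the litters overlapped. The log2 difference was 0.78 (SE 0.26; limma adjusted p = 0.0433), and the call was lost in 13 of 23 alternatives, 7 of them single libraries left out (limma adjusted p up to 0.170). The summed level of 10 megakaryocyte and platelet markers was 34.1 to 56.0 TPM in litter 1 and 66.8 to 156 TPM in litter 3, and its part in the Gata1 difference was not tested.

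Hemgn (ENSMUSG00000028332, chr4:46393989-46413506, minus strand), a nuclear factor gene of blood cells, spanned the widest range of the 8, a ratio of 43.9 between its highest and lowest library. It had 2.14 TPM in WT 1, 1.87 in WT 2, 0.78 in cKO 1, 0.42 in cKO 2 and 4.85 in cKO 3. In litter 3 it had 6.72 in WT 3, 7.23 in WT 4 and 18.5 in cKO 4, and in litter 5 it had 5.95 in WT 5 and 12.97 in cKO 5. Litters 3 and 5 both lay above litter 1, and cKO 4 and cKO 5 were the highest libraries. The log2 fold change in litter 3 against litter 1 was 2.13 (SE 0.48; limma adjusted p = 0.00979). Without cKO 4 it was 1.64 and not called (limma adjusted p = 0.0672).

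Of the haem genes, Alas2 had the larger fitted difference, though the difference between it and Fech was not tested. This gene (ENSMUSG00000025270, chrX:150547375-150570638, plus strand) had 25.3 TPM in WT 1, 26.1 in WT 2, 26.9 in cKO 1, 19.1 in cKO 2 and 26.7 in cKO 3, then 70.1 in WT 3, 74.8 in WT 4 and 61.5 in cKO 4. Litter 5 lay between, with 47.5 in WT 5 and 36.9 in cKO 5, and the 3 litters did not overlap. The mean of litter 3 was 2.77 times that of litter 1, and the fitted log2 difference was 1.39 (SE 0.12; limma adjusted p = 0.00147). Alas1, the form of the same enzyme used outside red cells, fell from 57.8 ± 7.15 TPM in litter 1 (SD, n = 5) to 42.3 ± 5.34 in litter 3 (SD, n = 3), a log2 fold change of -0.45 (limma adjusted p = 0.0185). However, Alas1 was at 0.32 after scaling to the cortex markers, where the median over all genes was 0.55. It was not called under quantile normalisation (limma adjusted p = 0.2), without WT 4 or without cKO 4 (limma adjusted p up to 0.124). The ratio of Alas2 to Alas1 TPM was 0.351 to 0.506 in litter 1, 1.46 to 1.81 in litter 3 and 0.753 to 0.944 in litter 5.

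Fech (ENSMUSG00000024588) is used for haem synthesis in all cells as well as in red cells. It had 30.97 TPM in WT 1, 27.7 in WT 2, 30.2 in cKO 1, 22.3 in cKO 2 and 29.9 in cKO 3, and 50.6 in WT 3, 51.1 in WT 4 and 41.7 in cKO 4. Litter 5 was within the range of litter 1, with 29.4 TPM in WT 5 and 28.6 in cKO 5. The mean of litter 3 was 1.69 times that of litter 1, and the fitted log2 difference was 0.71 (SE 0.12; limma adjusted p = 0.00393).

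The membrane genes moved in the same direction. Slc4a1 (ENSMUSG00000006574, chr11:102348824-102366203, minus strand) had 23.6 TPM in WT 1, 22.6 in WT 2, 18.0 in cKO 1, 12.7 in cKO 2 and 26.8 in cKO 3, against 62.6 in WT 3, 65.7 in WT 4 and 58.1 in cKO 4. In litter 5 it had 34.4 in WT 5 and 26.3 in cKO 5, the latter just inside the range of litter 1. Litter 3 was 3.00 times litter 1 in mean TPM, and the fitted log2 difference was 1.50 (SE 0.19; limma adjusted p = 0.00274).

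Rhag (ENSMUSG00000023926, chr17:40811126-40840754, plus strand), which encodes the Rh-associated glycoprotein, had 0.84 to 2.71 TPM in litter 1, with a median of 1.81. It had 5.83 in WT 3, 6.10 in WT 4, 5.01 in cKO 4, 3.11 in WT 5 and 2.73 in cKO 5, and litter 3 overlapped neither other litter. The log2 difference was 1.19 (SE 0.22; limma adjusted p = 0.00531). Epb42 (ENSMUSG00000023216, chr2:121017891-121037072, minus strand), whose product binds band 3, had 2.62 TPM in WT 1, 3.58 in WT 2, 5.60 in cKO 1, 2.32 in cKO 2 and 2.02 in cKO 3, and 5.26 in WT 3, 7.48 in WT 4 and 7.57 in cKO 4. The value of cKO 1 exceeded that of WT 3, so these litters overlapped. The log2 difference was 0.91 (SE 0.28; limma adjusted p = 0.0344), and the call was lost in 10 of 23 alternatives, with the adjusted p up to 0.163 when single libraries were left out.

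**Figure D2:**
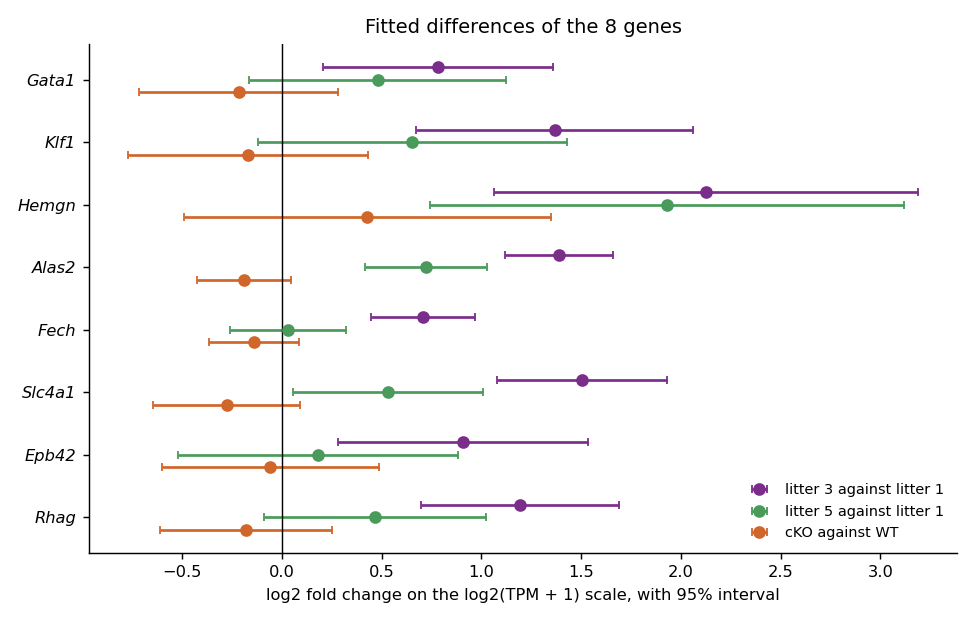
Fitted log2 fold changes of the 8 genes on the log2(TPM + 1) scale, with 95% intervals, for litter 3 against litter 1, litter 5 against litter 1 and cKO against WT. The intervals of litter 3 against litter 1 exclude 0 for all 8 genes, and those of cKO against WT include 0 for all 8.

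Litter 5 lay between the others in mean TPM for all 8 genes. Against litter 1 all 8 log2 fold changes were positive, from 0.03 for Fech to 1.93 for Hemgn with a median of 0.51, and 0 of 8 were called, where 0.0217% of all genes were called. An unadjusted limma p under 0.05 was reached by 3 of the 8, Alas2, Slc4a1 and Hemgn, and by 2659 of the 13833 genes. Alas2, Rhag and Hemgn had both litter 5 libraries above all of litter 1, which held for 7.46% of tested genes. Litter 3 was higher than litter 5 in all 8 genes by point estimate, from 0.19 for Hemgn to 0.97 for Slc4a1, again with 0 of 8 called on TPM (0.0289% of all genes) and 4 of 8 under an unadjusted p of 0.05, as were 1919 of the 13833 genes. After scaling to the cortex markers 5 of the 8 were called against litter 5, with 7.1% of all genes called and a median over all genes of 0.40, against 1.20 for the 8. Litter 5 holds 2 libraries, and the 95% interval of litter 3 against litter 5 for Epb42 ran from -0.04 to 1.50.

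The globin sum was 1.73% to 1.97% of TPM in litter 1, 4.17% to 5.57% in litter 3 and 2.39% to 2.64% in litter 5. Set against it, 7 of the 8 genes gave ratios in litter 3 that overlapped those of litter 1. Alas2 stood at 1.10 to 1.43 TPM per 1000 globin TPM in litter 1 and 1.29 to 1.47 in litter 3, Slc4a1 at 0.735 to 1.39 and 1.15 to 1.39, and Rhag at 0.0485 to 0.140 and 0.108 to 0.120. Over all tested genes, 88.6% had every litter 3 ratio below every litter 1 ratio, and 0.0217% had every one above. Fech was the single exception among the 8, with 1.29 to 1.69 in litter 1 and 0.918 to 0.999 in litter 3, and it shared that pattern with the bulk of the transcriptome. The ratio of Hemgn was 0.0243 to 0.251 in litter 1, 0.124 to 0.442 in litter 3 and 0.249 to 0.491 in litter 5.

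**Figure D3:**
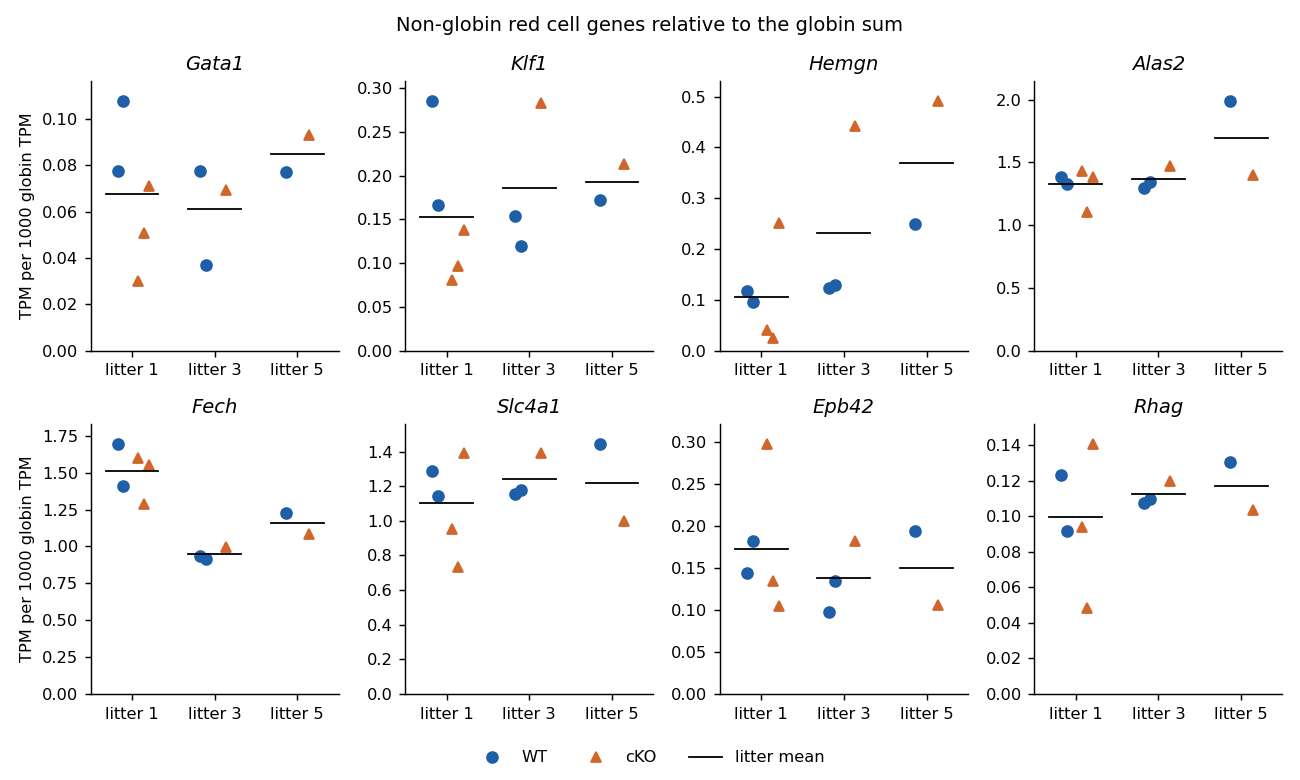
TPM of each of the 8 genes per 1000 TPM of globin, by litter, with circles for WT, triangles for cKO and a line at the mean of each litter. Fech alone separates litter 3 (0.918 to 0.999) from litter 1 (1.29 to 1.69), and the ratios of the other 7 genes overlap between these litters.

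The genotype comparison asks whether deleting Zbtb7a in the dorsal telencephalic lineage changes red cell transcripts in the cortex. None of the 8 genes was called between cKO and WT with litter as a term (limma, 0 of 8, against 0.0361% of all genes), and 0 of 8 had an unadjusted limma p under 0.05, which 324 of the 13833 genes had. Fitted log2 fold changes were negative for 7 of the 8, with a median of -0.18 against -0.01 over all genes. The values were -0.19 for Alas2 (95% interval -0.43 to 0.05), -0.28 for Slc4a1 (-0.65 to 0.09), -0.14 for Fech (-0.36 to 0.09) and -0.18 for Rhag (-0.61 to 0.25). Gata1 was at -0.22, Klf1 at -0.17, Epb42 at -0.06 and Hemgn at 0.43, and the interval for Hemgn ran from -0.49 to 1.35. Embryo sex was not a term in this fit. Xist was at 20.4 TPM in WT 3, 28.9 in cKO 1, 39.1 in cKO 3 and 70.5 in cKO 4, and at 0.01 or less in the other libraries. With Xist as a covariate 0 of the 8 were called, and Alas2 was at -0.34.

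Means that ignore the litter were lower in cKO for 7 of the 8 genes. Alas2 averaged 48.8 ± 23.4 TPM over the WT libraries and 34.2 ± 16.5 TPM over the cKO libraries (SD, n = 5 in each group), which is a ratio of 0.702, and Slc4a1 had a ratio of 0.680. WT holds 2 of the 3 litter 3 libraries, and the ranges of WT and cKO overlapped for all 8 genes (0.282% of tested genes did not overlap). Within litters the cKO to WT ratio of Alas2 was 0.943 in litter 1, 0.848 in litter 3 and 0.777 in litter 5, and that of Rhag was 0.874, 0.840 and 0.878. For Klf1 these ratios were 0.459 in litter 1, 1.57 in litter 3 and 1.37 in litter 5, and for Hemgn 1.01, 2.65 and 2.18. Litter 3 has a single cKO library, and litter 5 has 1 library of each genotype, so the ratios in litters 3 and 5 carry no error of their own. A test of whether the genotype difference varied between litter 1 and the other litters called 0 of 8 genes and 0% of all genes (limma), while 1 of the 8 and 687 of 13833 genes had an unadjusted p under 0.05. That gene was Klf1, with a log2 fold change in litter 1 minus that in the other litters of -1.33 (SE 0.35; limma adjusted p = 0.952).

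Other erythroid genes were counted by lists chosen with earlier results of these data known. Of 8 globin genes tested, 7 rose in litter 3 against litter 1 with a median log2 fold change of 1.35, and the embryonic gene Hbb-y, which had the smallest p of the list, went from 7507 ± 527 TPM in litter 1 (SD, n = 5) to 20339 ± 2703 in litter 3 (SD, n = 3). Of 18 other membrane and skeleton genes, 12 rose and 2 fell, with a median of 0.99, and the blood group gene Kel went from 2.98 ± 0.606 to 11.8 ± 2.75 TPM. Red cell enzymes had 6 of 9 higher and 0 lower (median 0.35), among them carbonic anhydrase gene Car2 at 1.41. Iron and mitochondrial import genes had 4 of 9 higher and 0 lower (median 0.20), with the mitochondrial iron importer gene Slc25a37 at 1.38. Of 12 other haem genes 3 rose and 1 fell (median 0.35), with the biliverdin reductase gene Blvrb at 1.06. The split among 14 other erythroid regulators was 6 higher and 5 lower (median 0.44), where 803 of all 13833 genes were called higher and 3575 lower. Nfe2 and Tal1, which act in red cell and platelet precursors, rose by 1.24 and 1.28, and Bcl11a, Sox6, Myb, E2f2 and Ldb1 fell. Bcl11a and Sox6 are also known in cortical cells, and after scaling to the cortex markers Bcl11a, Sox6 and Myb were no longer called, E2f2 was at 0.23 and not called, and Ldb1 was called higher at 0.46 (limma adjusted p = 0.00811). The median over all genes was 0.55 under that scaling. The Ldb1 call in litter 3, at an adjusted p of 0.0482 (limma), was lost in 15 of 24 alternatives, and the E2f2 call was lost under quantile normalisation. In cKO against WT 0 genes of these lists were called.

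Markers of other cells moved with the litter as well. Mesenchyme and meninges markers had 8 of 10 higher in litter 3 (median 0.99), with summed levels of 213 to 335 TPM in litter 1, 470 to 1051 in litter 3 and 218 to 298 in litter 5. Platelet markers had 6 of 8 higher (median 1.22), but in litter 5 against litter 1 their median was -0.15, where the 8 erythroid genes had 0.51. Endothelial markers had 2 of 12 higher and microglial markers 2 of 14, and cortex markers had 11 of 12 lower (median -0.66). Of 3 tested markers of granulocytes and blood progenitors 0 were higher and 1, Kit, was lower (median -0.05), and the granulocyte markers Mpo and Elane were under 1 TPM in every library. Another granulocyte marker, S100a8, picked after its values were seen, had 7.3 TPM in cKO 4, 1.98 in cKO 5, 1.16 in cKO 1, 0.38 in WT 5 and 0 in the other libraries, and cKO 4 and cKO 5 are also the libraries with the most Hemgn. Mpo did not share this, with its highest value of 0.93 TPM in WT 3 and 0.27 TPM in cKO 5. Elane did not either, with its highest value of 0.25 TPM in WT 4, 0.17 in cKO 4 and 0 in cKO 5. Values by library of the other markers in this list are not given here. The embryonic globin gene Hbb-bh1 was also highest in cKO 4 and cKO 5, at 3052 and 3213 TPM. Other embryonic globin genes did not share this. Hbb-y was highest in WT 4 at 22492 TPM, with 17306 in cKO 4 and 10885 in cKO 5. Hba-x had 5796 TPM in cKO 4 but 2916 in cKO 5, below 5033 in WT 3. The part of these other cells in the differences of the 8 genes was not tested.

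**Figure D4:**
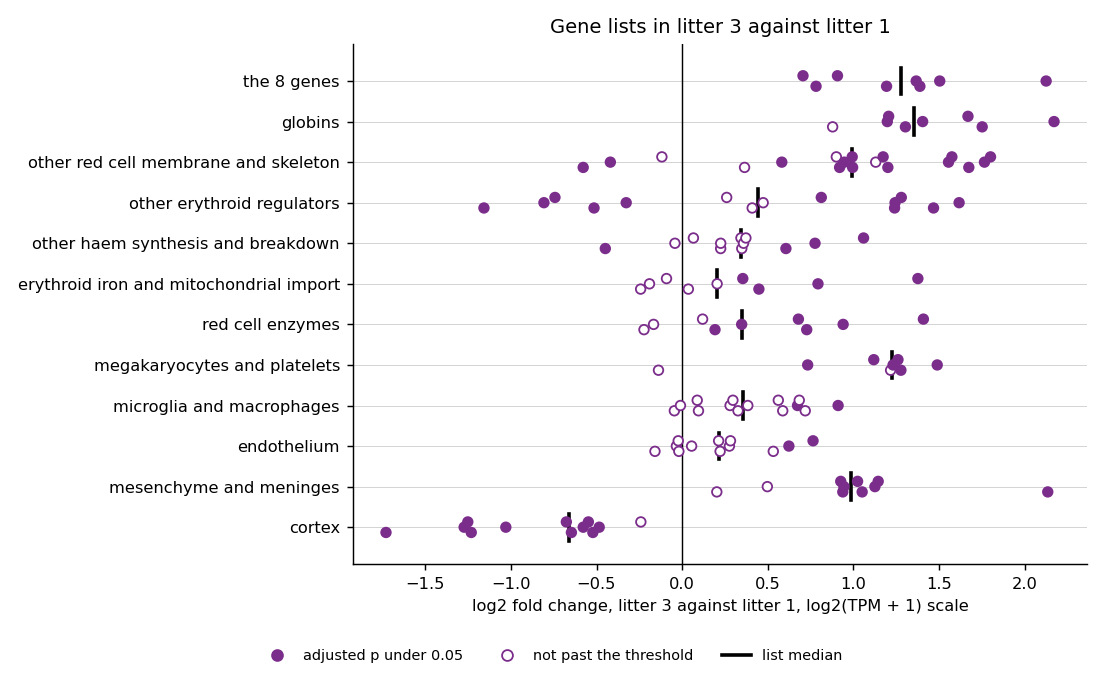
Log2 fold change in litter 3 against litter 1 on the log2(TPM + 1) scale for every tested gene of each list except granulocytes and progenitors, with 1 point per gene, filled where called, and a line at each median. The 8 erythroid genes have a median of 1.28, the globins 1.35 and the cortex markers -0.66.

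The profile over the 10 libraries was compared between genes as a root mean square distance between log2(TPM + 1) values scaled to mean 0 and SD 1. The genes nearest to the mean profile of the 8 were Sptb (0.164), which encodes beta-spectrin, Slc25a37 (0.182), Car2 (0.214), the embryonic globin gene Hba-x (0.218), Slc39a8 (0.222) and Mettl2 (0.246), against a median of 1.54 over all tested genes. Among the 8, Slc4a1 (0.165), Rhag (0.211) and Alas2 (0.231) lay close to their mean profile. Fech and Klf1 lay further out, at 0.398 and 0.399, and Gata1 (0.550), Hemgn (0.552) and Epb42 (0.698) furthest. The mean profile holds the 8 genes themselves, so these distances are a description.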

How the data were processed

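PolyA RNA from 10 embryonic day 12 cortices was sequenced. The authors deposited 1 table of TPM, a unit that keeps no read depth, so no counting interval can be given. The authors' deposited table of their own comparison, whose adjusted p-values were not recomputed, was used only to look up the genes. The submitters' processing notes name cutadapt, featureCounts, DESeq2 and mm10, with no versions, and no aligner is given in the sources used here. Between 18991 and 19944 genes were above 0 TPM per library. A further 5 columns, with 4 values each, matched no sample label and were not used. Genes were matched to GENCODE M21 (24774 of 24814), and Ahsp was not analysed here.

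Log2(TPM + 1) values of the 13833 genes with at least 1 TPM in at least 5 libraries were fitted with limma 3.58.1 (R 4.3.3) with terms for litter and genotype, and p-values were adjusted by Benjamini-Hochberg over all genes. The pseudocount of 1 makes fold changes of low genes smaller than they are in TPM. Each library is 1 embryo and the fit has litter terms, so p-values measure the spread between embryos within these litters. A litter comparison sets a single litter against another, so its p-values hold no spread between litters. The members and gene lists were chosen with earlier results of these data known. Besides the members and Zbtb7a, most named genes are up to 4 per list by smallest p in litter 3 against litter 1. The 6 genes with the nearest profiles are named as well. The genes Sox6, Myb, E2f2, Ldb1 and S100a8 were named after their values were seen. Hbb-bh1, Mpo and Elane were also named outside this rule. Alternatives changed the pseudocount, filter, scaling, weights, covariates, litter terms and libraries. The series text counts 3 cortices per condition from 2 litters, whereas the labels give 10 libraries in 3 litters, and the labels were followed.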

Additional observations from a re-analysis of the deposited data

Results flagged for a closer look

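Among the 5 WT libraries, Gata1 in WT 3 stood apart. It had 4.19 TPM against 1.42 to 2.12 TPM in the other WT libraries, a gap of 0.747 of the range of the group. The test ignored litter, and WT 3 belongs to litter 3, where Gata1 was called higher than in litter 1. Of 16 such tests on the 8 genes in both genotypes this was the 1 that passed, and chance passes about 1 group in 20.

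The Klf1 difference between cKO and WT was of opposite sign in litter 1 and in litters 3 and 5, with a cKO to WT ratio of 0.459 in litter 1, 1.57 in litter 3 and 1.37 in litter 5. The difference of the log2 fold changes was -1.33 (limma, unadjusted p = 0.00444, adjusted p = 0.952), which fails the correction over all genes.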

How the results depend on the processing

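In litter 3 against litter 1, the 8 genes gave 189 values under alternatives, of which 152 kept direction and call, 36 lost the call and 1 reversed. The number of the 8 called was 5 with a filter of 5 TPM, which tested only 5, 0 with the replicate block beside the litter term, 0 with globin as a covariate, 6 without a filter or with Xist as a covariate and 7 with pseudocount 0.1 or array weights, and 4 to 8 when single libraries were left out. Genes called over the table (4378) became 4 with the block, 8131 after cortex scaling, 0 with the globin covariate and 2585 (without WT 3) to 4524 without single libraries. Cortex scaling and the globin covariate were chosen after seeing the data. The globin sum did not overlap between litters 1 and 3, so the covariate cannot separate a litter difference from globin. Cortex scaling called 5 of the 8 in litter 3 against litter 5, and 982 of 13833 genes.

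In cKO against WT 0 of the 8 were called under every alternative run. Genes called (5) became 3 with a filter of 5 TPM, 2 with the replicate block without litter, 3 with the block beside litter, 3 with Xist, 3 without litter 5, 1 in litter 1 only, 2 after cortex scaling and 3 to 5 without single libraries. Zbtb7a was at -1.29 in litter 1 only (exact permutation p = 0.1, the smallest possible there) and at -1.04 to -0.85 without single libraries.

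Reversed values in cKO against WT were Epb42 at 0.048 with array weights, 0.077 without litter 5, 0.0044 after cortex scaling and -0.23 to 0.077 without single libraries, Klf1 at -0.47 to 0.089 without single libraries, and Hemgn at -0.29 in litter 1 only. In litter 5 against litter 1, Epb42 ran from -0.13 to 0.52 and Fech from -0.036 to 0.092 without single libraries, with Fech at -0.24 under the globin covariate. In litter 3 against litter 5, Gata1 ran from -0.035 to 0.60 and Hemgn from -0.26 to 0.54, with Hemgn at -0.24 under Xist. In litter 3 against litter 1 cortex scaling gave 0.23 for E2f2, 0.46 for Ldb1 and 0.32 for Alas1, and the globin covariate gave -0.20 for Fech, 0.84 for Ldb1, -0.17 for Fth1, -0.30 for Gpx1, -0.011 for Fcer1g and -0.48 for Lum. The cause was not tested. Animal numbers do not pair the samples, since WT 3 and cKO 3 come from different litters, and only number 4 correlated best with its own number (correlations -0.29 to 0.30).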
